A study of Mus musculus with 13 samples.

Results

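Local peaks of 5-hydroxymethylcytosine (5hmC) were described in 13 mouse breast tumours: 300 genomic bins of 300 kb whose 5hmC percentage stood above that of the bins on either side. The table held 9097 bins, of which 8219 lay on chromosomes 1 to 19 and 6947 of those were above 0 in all 13 tumours. Of these, 5957 also had both neighbours above 0 in all tumours, and 3224 of the 5957 had a mean over the 13 tumours of 3% or more. For each of the 3224 eligible bins the mean was divided by the average of the means of the bin before and the bin after (the flanks), and the 300 highest ratios were kept. The other 2924 eligible bins serve as the comparison below. The choice used the means of all 13 tumours, so the height of the peaks over their flanks in these means is a description and carries no test.

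Each tumour was a breast tumour of an FVB mouse induced by PyMT, the polyoma virus middle T oncogene, and the labels describe 1 tumour per mouse. In the Phd2 model, mice were 16 weeks old and the labels name no plasmid; 3 were PHD2+/+ (wild type) and 4 were PHD2+/- (heterozygous for the oxygen sensor PHD2, a prolyl hydroxylase). In the plasmid model, mice were 12 weeks old and had a plasmid delivered by hydrodynamic injection, which was the empty PRRL2 vector in 3 mice and PRRL2-sFlk1 in the other 3. sFlk1 is a soluble VEGF receptor that traps the angiogenic factor VEGF. The labels state that Phd2 heterozygosity restores the tumour's vessels and oxygen supply and that sFlk1 makes tumours more hypoxic. Per the labels, the extraction buffers of all 13 contained DFO, an iron chelator, at 200 µM. Age, plasmid injection and model differ together, so the models cannot be told apart from age. Whole tumours were measured, so a different mix of cell types and a different level of 5hmC per cell cannot be told apart, and a 5hmC percentage gives no direct check of cell type markers.

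5hmC is made from 5-methylcytosine by the TET enzymes, which need oxygen, iron and 2-oxoglutarate. The base is known to accumulate in the bodies of transcribed genes and at enhancers, and to be low in gene deserts and at the promoters of silent genes. Tet-assisted bisulfite sequencing (TAB-seq) protects 5hmC with a glucose, oxidises the remaining 5-methylcytosine, and then converts with bisulfite, so that a base still read as cytosine stands for 5hmC. The sequencing was shallow and the table gave no read counts, so the depth behind a value is unknown and no counting interval can be given. A value is the percentage over a whole bin, and not that of a gene or promoter within it.

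The genes at the head of the ranking had start sites of different base composition. The RefSeq promoters (GRCm38.p6, 250 bases before to 50 after the start, 5′ to 3′) of the longest gene with an entry in each of the 4 highest-ranked bins are shown with each CG dinucleotide, the usual site of cytosine methylation and its oxidation, in capitals. They are Atp10a at chr7:58657952-58658251 (plus strand, 20 CG), Kat2b at chr17:53566721-53567020 (plus strand, 11 CG), Sh2d4b at chr14:40893265-40893564 (minus strand, 3 CG) and Vps13d at chr4:145194956-145195255 (minus strand, 21 CG). Kat2b and Vps13d each have 2 promoter entries in their bin, of which 1 is shown.
Atp10a: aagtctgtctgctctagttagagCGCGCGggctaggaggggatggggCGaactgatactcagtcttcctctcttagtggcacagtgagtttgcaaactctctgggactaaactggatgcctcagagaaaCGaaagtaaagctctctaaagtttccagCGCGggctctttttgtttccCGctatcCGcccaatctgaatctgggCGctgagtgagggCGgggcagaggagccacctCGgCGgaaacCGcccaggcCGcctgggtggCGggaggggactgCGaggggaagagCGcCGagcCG
Kat2b: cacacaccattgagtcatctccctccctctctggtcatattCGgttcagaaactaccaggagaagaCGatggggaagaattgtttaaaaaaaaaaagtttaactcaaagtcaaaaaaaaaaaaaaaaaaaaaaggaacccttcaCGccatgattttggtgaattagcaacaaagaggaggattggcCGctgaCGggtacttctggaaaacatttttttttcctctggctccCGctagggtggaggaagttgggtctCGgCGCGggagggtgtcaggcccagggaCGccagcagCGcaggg
Sh2d4b: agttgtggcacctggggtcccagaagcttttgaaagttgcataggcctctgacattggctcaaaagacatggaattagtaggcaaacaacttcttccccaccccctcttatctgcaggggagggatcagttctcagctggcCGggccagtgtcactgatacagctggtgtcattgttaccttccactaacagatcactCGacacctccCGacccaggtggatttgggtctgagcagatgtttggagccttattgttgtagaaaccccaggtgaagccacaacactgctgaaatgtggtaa
Vps13d: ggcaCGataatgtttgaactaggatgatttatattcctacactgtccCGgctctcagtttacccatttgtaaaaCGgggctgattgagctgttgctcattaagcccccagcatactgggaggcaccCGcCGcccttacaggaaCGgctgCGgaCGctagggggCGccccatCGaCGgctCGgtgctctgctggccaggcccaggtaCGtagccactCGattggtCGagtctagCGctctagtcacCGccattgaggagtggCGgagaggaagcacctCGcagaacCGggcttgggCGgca
CG reads the same on both strands, and 94.75% of the 31396 autosomal promoters of this length in the table held at least 1. The Atp10a and Vps13d promoters are rich in CG and that of Sh2d4b is poor, so the 4 promoters shown were not of 1 type. Each is a single entry of 1 gene, and other promoters in these bins were not compared.

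The bin with the highest ratio was chr7:58500001-58800000 (GRCm38, as are all positions), which holds Atp10a, a phospholipid-translocating ATPase. Its 5hmC was 3.03%, 2.30% and 3.14% in the Phd2 wild-type tumours, 4.58%, 3.86%, 4.42% and 3.62% in the heterozygous, 3.53%, 6.92% and 2.42% in the empty-vector and 2.36%, 2.44% and 4.08% in the sFlk1 tumours. Its flanks averaged 0.700% over the 13 tumours, with no tumour above 1.31%, and the mean of 3.59% was 5.13 times that. Every tumour was therefore higher in the bin than in its flanks, although the level itself varied most among the empty-vector tumours.

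The second bin, chr17:53400001-53700000, holds Kat2b, a histone acetyltransferase, together with Efhb, Pp2d1, Rab5a, a GTPase of early endosomes, and Sgo1, which protects cohesin at centromeres. Its values were 5.05%, 3.99% and 4.20% in wild-type, 5.13%, 5.68%, 4.63% and 4.78% in heterozygous, 4.10%, 3.97% and 4.56% in empty-vector and 4.54%, 3.33% and 4.49% in sFlk1 tumours, against a flank mean of 0.924%. The groups overlapped within each model, and its mean of 4.50% lay below the median of the peaks, so that the ratio of 4.87 went with low flanks.

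Other peaks near the head of the ranking had higher levels. The bin chr4:144900001-145200000, 98.3% of which is covered by Vps13d, a lipid transfer protein, had a mean of 6.69% over flanks of 1.64% (ratio 4.08). The bin chr9:9000001-9300000, with Arhgap42, had a mean of 6.96% over 1.80% (ratio 3.88). Between the lowest and the highest of the 13 tumours the Arhgap42 bin ran from 3.97% to 9.31%, while its flanks ran from 0.957% to 3.26%. The bin before it holds most of Pgr, the progesterone receptor, at 1.21%. Gng12, a G protein subunit, and Gadd45a, a stress-induced gene linked to DNA repair and demethylation, share the bin chr6:66900001-67200000, which had a mean of 7.30% over 2.05% (ratio 3.55).

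The other 5 of the 10 highest ratios were bins of Sh2d4b and Tspan14 (4.10), Mdfic (3.94), Vps50, Hepacam2 and Samd9l (3.70), Gab1, Smarca5 and Usp38 (3.63), and Inpp5a (3.61). Sh2d4b encodes an SH2-domain protein, Mdfic a regulator of transcription factors, Gab1 an adaptor of receptor tyrosine kinases, Smarca5 the ISWI chromatin remodelling ATPase and Inpp5a an inositol phosphatase. Each of the 10 bins was above both of its neighbours in 13 of 13 tumours. The plot of these bins by tumour shows the gap between bin and flanks in each.

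**Figure D1:**
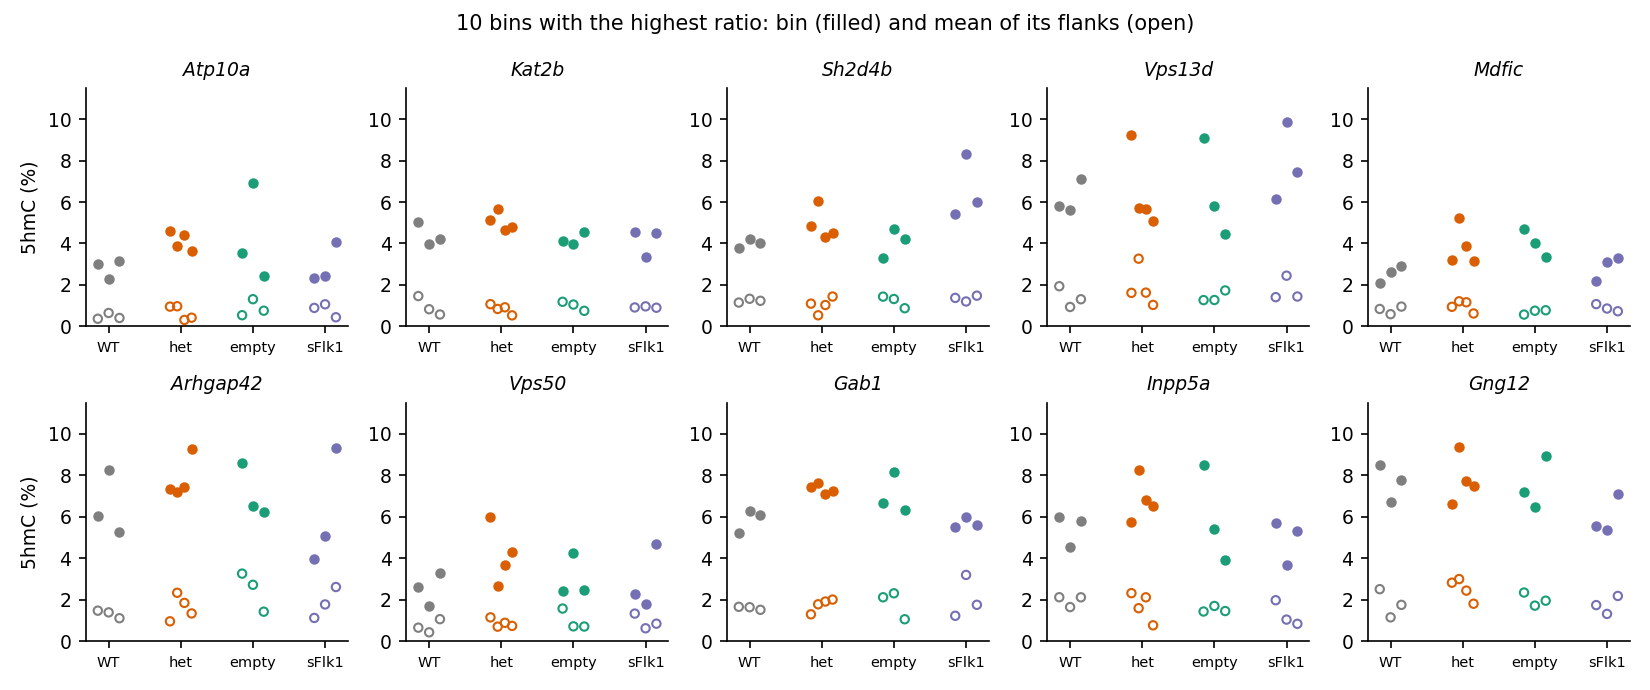
5hmC percentage (y axis) in the 10 bins with the highest ratio, titled by the first gene, in each tumour of the 4 groups (x axis; WT and het are the Phd2 wild-type and heterozygous tumours, empty and sFlk1 the plasmid groups). Filled points are the bin and open points the mean of its flanks in the same tumour; the filled points lie above the open ones in all 13 tumours, from a flank mean of 0.700% at Atp10a to 2.05% at Gng12.

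Across the 300 peaks the mean 5hmC over the tumours ran from 3.02% to 11.8% with a median of 4.76%, and the flanks had a median of 2.20%. The median ratio was 2.09 and the median step, meaning the level of the bin minus that of its flanks, was 2.60 percentage points. The other 2924 eligible bins had a median level of 4.18%, a flank median of 3.95% and a median ratio of 1.10. Peaks thus differed from other bins of 3% or more mainly in their flanks. The flanks of a peak were often uneven, with a median of 1.55 for the ratio of the higher to the lower.

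The rule's limit fell within a continuous range. The last 3 peaks inside it were the bins of Hhat and Sertad4 (1.789), Gse1 (1.787) and Fut9 (1.787), and the first 3 outside it were those of Sgk3 (1.786), Arhgef3 (1.785) and Tead4 (1.785).

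By step, the 5 largest peaks were those of Nfib (6.85 points), Snd1, 1700025G04Rik, Gng12 with Gadd45a, and Arhgap42. Nfib, a nuclear factor I transcription factor that acts in the mammary epithelium, was in the bin chr4:82200001-82500000. Its level was 9.38%, 9.26% and 11.1% in wild-type, 13.7%, 13.1%, 11.8% and 12.2% in heterozygous, 16.3%, 10.3% and 13.1% in empty-vector and 9.30%, 13.4% and 9.92% in sFlk1 tumours, and its mean of 11.8% was the highest of the 5957 bins. All 4 heterozygous tumours were above all 3 wild-type tumours, while the plasmid groups overlapped. The bin of Snd1, a component of the RNA-induced silencing complex, had a mean of 9.13% over flanks of 3.25%.

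Low flanks were a condition of the choice, so the profile around the peaks describes it. Averaged over the 300 peaks and 13 tumours, 5hmC was 4.99% in the peak bin, and 2.31% and 2.30% in the bins before and after. At 600 kb, which the rule did not use, it was 2.40% and 2.39%, and at 1500 kb it was 2.65% and 2.66%. The flanks were thus slightly below the bins farther out, in each group. The rule leaves little room for adjoining peaks, and there were 0; 8 pairs shared a neighbour, and the median spacing on a chromosome was 16 bins.

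**Figure D2:**
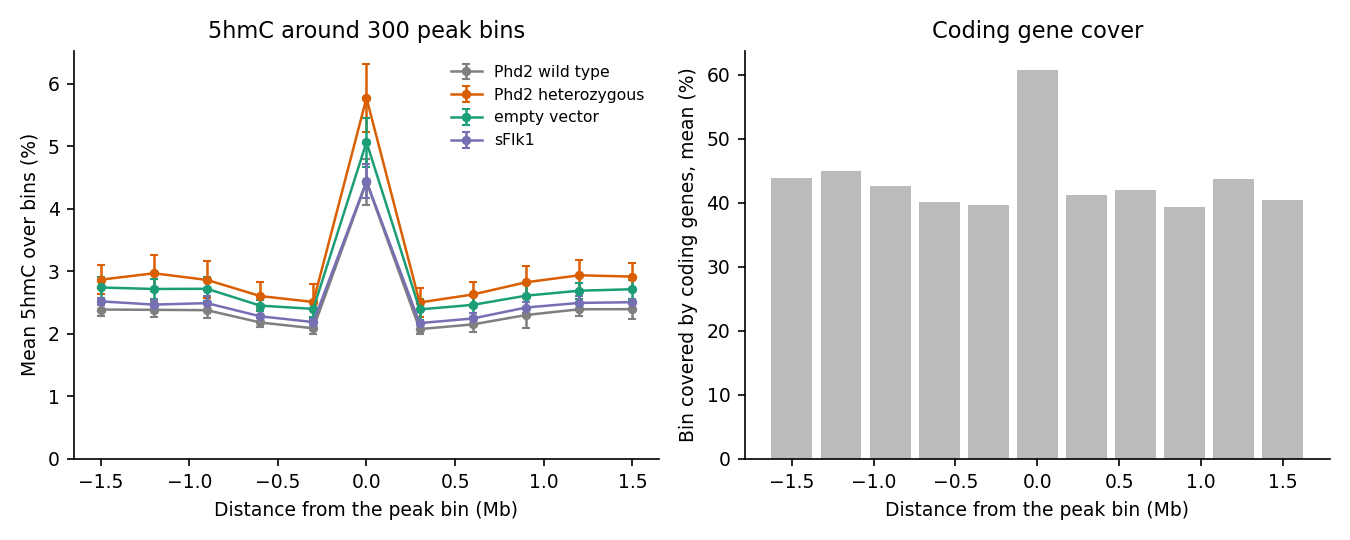
Left: mean 5hmC percentage (y axis) over the 300 peaks at distances of up to 1.5 Mb on each side of the peak bin (x axis), by group; points are means over the tumours of a group and bars their SD. Right: mean percentage of each bin covered by protein-coding genes at the same distances. Both rise in the central bin, 5hmC from 2.31% to 4.99% over all tumours and coding cover from 39.7% to 60.7%.

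The peak was present in single tumours and not only in the mean. Of the 300 peaks, 128 were above both neighbours in all 13 tumours and 287 in at least 10, and the lowest count was 6 tumours. The median was 12 tumours, against 4 for the other eligible bins. These counts use the tumours that chose the peaks, so the rule was repeated on 1 model and read in the other.

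Peaks chosen in the 7 tumours of the Phd2 model had a median ratio of 2.20 there and of 1.94 in the 6 plasmid tumours, which had no part in the choice. The middle 50% of the held-out ratios ran from 1.72 to 2.33, and 297 of the 300 (99%) were above both flanks in the plasmid tumours, against 42.7% of the 3311 bins eligible in the Phd2 model. In the other direction the median was 2.07 in the 6 choosing tumours and 2.13 in the 7 held-out tumours, with 291 of 300 (97%) above both flanks against 43.9% of 3164. The 2 choices had 190 bins in common, which is 63.3% of each. When each tumour in turn was held out of the choice, 255 to 288 of the 300 chosen bins were above both flanks in it, against 41.4% to 43.6% of all eligible bins. The peaks therefore recurred in tumours and in a model that had not chosen them.

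**Figure D3:**
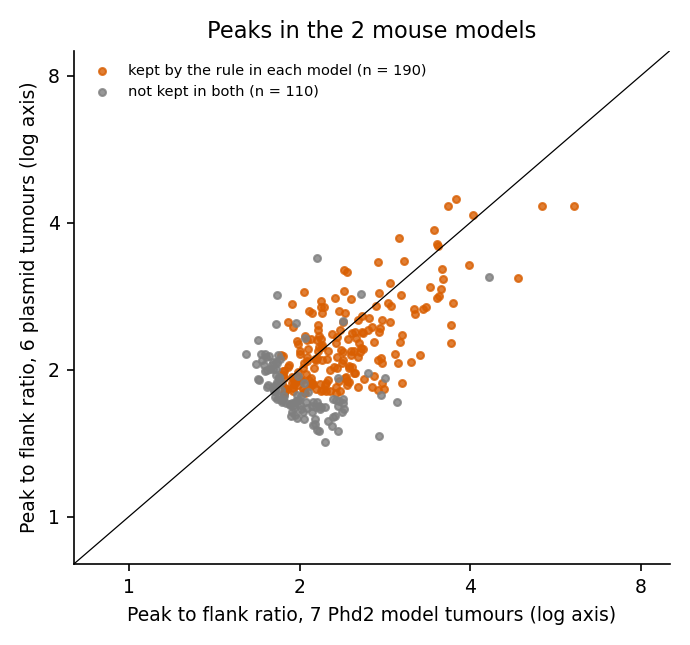
Ratio of each of the 300 peaks to its flanks in the 7 tumours of the Phd2 model (x axis, log) and in the 6 plasmid tumours (y axis, log); the line marks equal ratios. Orange points are bins that the rule keeps in each model by itself and grey points the other peaks; all 300 were chosen on the 13 tumours together, so the spread is descriptive.

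The peaks were gene-rich beside their flanks. Protein-coding genes covered a median of 61.5% of a peak bin (middle 50% of bins 45.0% to 79.7%) and 39.1% of the 592 bins beside a peak. The median over all 5957 bins was 49.5%. In 240 of the 300 peaks (80.0%) coding cover was above the average of the flanks, which held for 53.5% of the other eligible bins. Annotation took no part in the choice. Coding cover itself was not particular to the peaks, as other eligible bins had a median of 59.1%. The contrast lay in the flanks.

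Counting each gene in the bin that holds most of its body, 10 of the 300 peaks (3.33%) had no coding gene, against 162 of 592 flanking bins (27.4%) and 365 of 2924 other eligible bins (12.5%). The share over all 5957 bins was 24.0%, near that of the flanks. A peak with genes between 2 flanks without any by this count was found 28 times (9.33%). The shares were 2.63% of the other eligible bins and 3.95% of all 5957. Such a flank may still hold part of a gene that counts in another bin. In 161 peaks (53.7%) all 3 bins had genes, against 69.6% of the other eligible bins and 54.1% of all 5957. Genes per bin were 3.19 in peaks and 3.76 in the other eligible bins, so peaks were not denser in genes than other bins of 3% or more. Bins that overlapped no coding gene at all were fewer, with 5 peaks (1.67%) and 86 flanking bins (14.5%). The shares were 6.33% of the other eligible bins and 15.1% of all 5957, which is near that of the flanks.

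Single long genes filled many peaks. In 95 of the 300 (31.7%) 1 coding gene covered at least 150 kb of the bin, against 19.1% of flanking bins and 19.2% of the other eligible bins. Of these 95 genes, 61 reached into a neighbouring bin and 34 lay within the peak. Vps13d (324 kb, 98.3% of its bin) and Arhgap42 (79.7%) are the highest-ranked of them, and Nfib covers 69.9% of its bin.

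**Figure D4:**
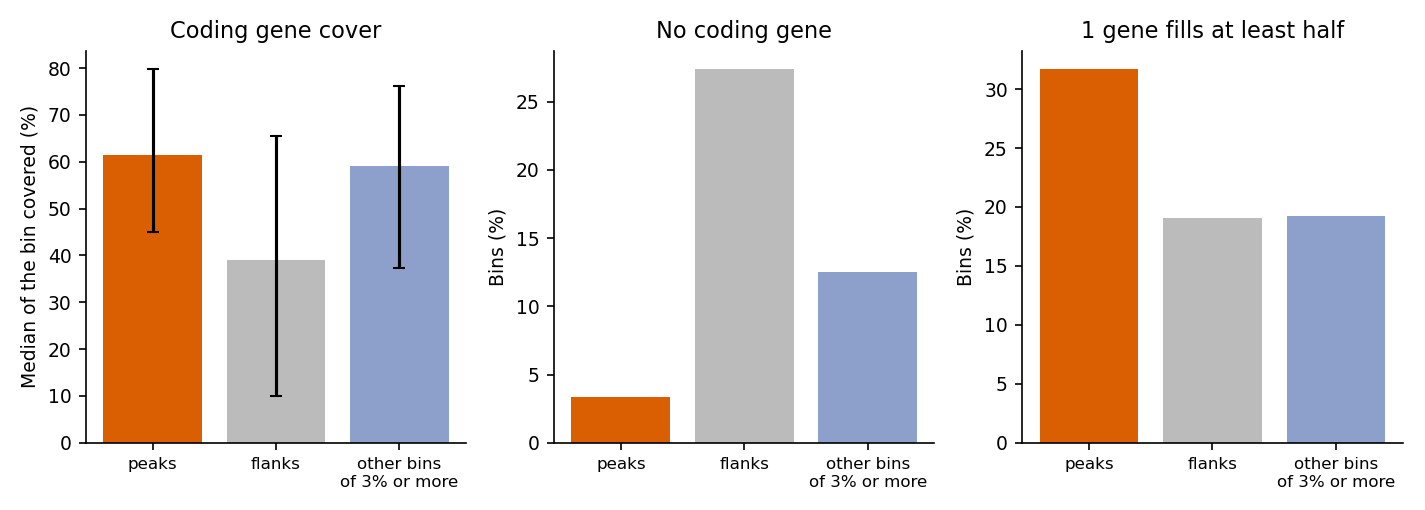
Coding gene content (y axes, percent) of the 300 peaks, the 592 bins beside them (flanks) and the 2924 other eligible bins (x axes). Left: median of the bin covered by coding genes, with bars for the middle 50% of bins. Middle: bins with no coding gene, each gene counting in the bin that holds most of its body. Right: bins in which 1 coding gene covers at least 150 kb. Peaks and other eligible bins are alike in cover (61.5% and 59.1%), flanks are lower (39.1%), and single long genes are most frequent in peaks (31.7%).

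Promoters in the peaks were as rich in CG as those of other bins of this level. Of 1475 RefSeq promoters in peak bins, 41.6% had an observed-to-expected CG ratio of at least 0.6 and a GC content of at least 50%, against 42.1% in the other eligible bins and 28.2% of 2452 in the flanks. The median was 10 CG per promoter in peaks and 6 in flanks. Of the 956 coding genes in peaks, 759 had a promoter entry.

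Genes of 3 clustered families were also counted. Of 1104 autosomal olfactory receptor genes (Olfr), 9 (0.815%) lay in peaks, 81 (7.34%) in flanks and 45 (4.08%) in the other eligible bins. Of 354 vomeronasal receptor genes (Vmn) the counts were 3 (0.847%), 28 (7.91%) and 1 (0.282%), and of 42 beta-defensin genes (Defb) 2 (4.76%), 21 (50%) and 0. Over all 20665 autosomal coding genes they were 956 (4.63%), 1526 (7.38%) and 11008 (53.3%). The shares of Olfr and Vmn genes in flanks were thus near that of all genes, and their low shares in peaks were shared by the other eligible bins. Genes of such a family lie in clusters and share bins, and these 3 families were chosen after their values were seen.

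Of 221 autosomal genes on 15 lists of pathways and cell types, 16 lay in peaks (7.24%, against 4.63% of all coding genes), 13 in flanks (5.88%, against 7.38%) and 157 in the other eligible bins (71.0%, against 53.3%). Listed genes were thus more frequent in bins of 3% or more in general and not in peaks alone. The lists were chosen with earlier results of these data known, and no test was made. From the oxygen-related lists, Vhl, the ubiquitin ligase subunit that binds the hydroxylated HIF-alpha factors, was in a peak at 4.99% (ratio 1.86), and Ndrg1, a hypoxia-induced gene, at 5.70% (2.59). Bnip3, a hypoxia-induced mitophagy receptor, was in the bin before the Inpp5a peak at 1.48%. Also in flanks were Ankrd37 of the hypoxia-inducible list at 3.71% and Arnt2 of the oxygen sensing list at 3.145%. Other eligible bins held 13 of the 17 autosomal hypoxia-inducible genes and 6 of the 8 oxygen sensing genes. Gadd45a was the sole member of the cytosine modification list in a peak.

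The listed genes in peaks included transcription factors and chromatin regulators. Besides Nfib, these were Nfia (8.50%, ratio 1.90) and Nfix (4.35%, 2.38) of the same family, Tfap2c, a luminal AP-2 factor (4.77%, 1.90), Ikzf1, a lymphoid factor (4.10%, 1.88), Thrb, a thyroid hormone receptor (6.28%, 2.24), and Ncoa2, a nuclear receptor coactivator (5.91%, 1.97). Kmt2e, a protein of the lysine methyltransferase family, was at 6.20% (2.46) and the remodeller Chd7 at 6.72% (1.88). The others were the tumour suppressor Rb1 (7.65%, 2.25), the kinase genes Pik3ca (4.27%, 2.31) and Prkca (7.42%, 2.17), and Fap, a fibroblast protease (3.87%, 2.43). None of the 10 basal, 14 endothelial, 15 Polycomb target or 11 housekeeping autosomal genes listed lay in a peak. With 4.63% of all coding genes in peaks, 0 in a list of this size is near the background. Of the Polycomb targets, 3 were in flanks, Sox1 at 0.846%, Lhx1 at 2.74% and Gata4 at 2.80%, and 3 in other eligible bins. From the luminal list Pgr (1.21%) and Foxa1 (2.33%) were in flanks. From the leukocyte list Ptprc, the antigen CD45, was in a flank at 1.86%.

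In all, 5 peaks overlapped no coding gene, and they are named here for that reason after their values were seen. The highest level was in chr10:111600001-111900000 at 7.52% (ratio 2.07), which holds noncoding entries alone. The bin chr1:137700001-138000000 at 3.16% (1.83) holds the microRNA genes Mir181a-1 and Mir181b-1, and chr6:103200001-103500000 at 3.32% (2.07) holds no RefSeq gene. The others were chr3:35100001-35400000 at 4.33% (2.10) and chr10:103800001-104100000 at 3.35% (1.86), both with noncoding entries. By chromosome, peaks made up from 5.93% (chromosome 18) to 13.04% (chromosome 14) of the eligible bins, against 9.30% in all.

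The groups differed in the level of the peaks. Averaged over the 300 peaks, wild-type tumours had 4.65%, 4.00% and 4.64%, and heterozygous tumours 5.82%, 6.52%, 5.36% and 5.39%. The heterozygous tumours all lay above the wild-type tumours: their mean was 5.77% ± 0.541 (SD, n = 4) against 4.43% ± 0.375 (SD, n = 3), a difference of 1.34 points (SE 0.346) or 30.3%. In the flanks of the same peaks the difference was 0.423 points (20.3%) and the groups overlapped. The step was 3.27 ± 0.387 against 2.35 ± 0.302 points, without overlap, and the ratio of means was 2.31 ± 0.175 against 2.13 ± 0.109, with overlap. The 2924 other eligible bins differed by 1.02 points (26.0%) and all 5957 bins by 0.693 points (23.7%). The mean over peaks was given no test, since the peaks were chosen with results known.

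In the plasmid model, the empty-vector tumours had 5.51%, 4.91% and 4.78% over the peaks and the sFlk1 tumours 4.18%, 4.42% and 4.72%. The sFlk1 tumours all lay below: 4.44% ± 0.271 (SD, n = 3) against 5.07% ± 0.391 (SD, n = 3), a difference of -0.626 points (SE 0.275) or -12.4%. The flanks differed by -0.215 points (-8.98%), also without overlap, and the step by -0.411 points with overlap. Ratios of means, 2.04 ± 0.119 and 2.12 ± 0.0578, overlapped. Other eligible bins differed by -0.452 points (-10.2%). Levels of the peaks were thus higher in heterozygous and lower in sFlk1 tumours, as were those of other bins, and the ratio of peak to flank overlapped between groups in both models.

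**Figure D5:**
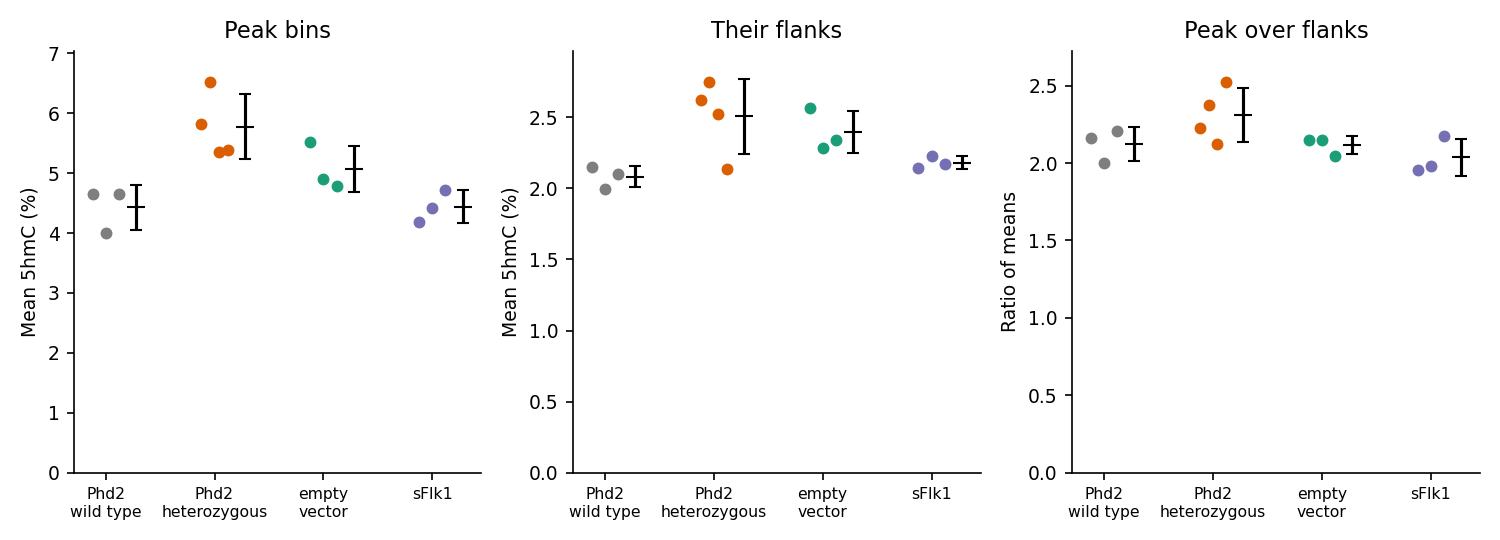
Mean over the 300 peaks in each tumour (coloured points) by group, with the group mean and SD (black): 5hmC percentage of the peak bins (left), of their flanks (middle) and ratio of both means (right). Heterozygous tumours lie above wild-type tumours in the peak bins (5.36% to 6.52% against 4.00% to 4.65%), and the ratios overlap.

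No peak passed the adjusted threshold in either comparison. In a limma fit over 8576 bins of 13 tumours, 0 bins of all had an adjusted p under 0.05 between heterozygous and wild-type tumours (0%), and the lowest adjusted p of a peak was 0.32 (limma, Benjamini-Hochberg). At an unadjusted p under 0.05, 86 of 300 peaks (28.7%) were higher in heterozygous tumours, against 10.4% of all bins and 20.9% of other eligible bins, and 0 were lower, against 0.443% of all bins. The groups did not overlap, heterozygous higher, in 76 peaks, against 11% of all bins and 19.3% of other eligible bins, and wild type was higher in 1, that of Ghr, against 0.933%. The mean was higher in heterozygous tumours in 285 of 300 peaks (95%), against 92.7% of other eligible bins and 75.1% of all, so most bins outside the peaks shared the direction.

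The counts of higher bins were smaller once the tumours' overall level was taken out, in the peaks and over all bins. After each tumour was scaled to its median bin, 25 of 300 peaks were higher and 0 lower at an unadjusted p under 0.05. All bins gave 174 higher (2.03%) and 157 lower (1.83%) in place of 892 (10.4%) and 38 (0.443%). The share of peaks called higher thus stayed above that of all bins. After scaling, the share of the other eligible bins was not counted. Before scaling it was 20.9%, already above the 10.4% of all bins, so the scaled share is not read as particular to the peaks. Leaving out wild-type tumour 2 gave 48 peaks in place of 86, and 5.10% of all bins in place of 10.4%.

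The 5 peaks with the smallest p were those of Top2b, Itprid1, Garem1, Rb1cc1 and Prickle2, none of which passed the adjusted threshold. Top2b, a DNA topoisomerase, lies with Ngly1 in chr14:16200001-16500000, where wild-type tumours had 2.38%, 2.92% and 3.33% and heterozygous tumours 5.90%, 5.69%, 5.41% and 6.20%. The gap between the groups was larger than the spread in either, and the difference was 2.92 points (SE 0.660, limma, adjusted p = 0.32). In the plasmid model the same bin had 3.59%, 4.55% and 3.75% with the empty vector and 2.90%, 4.73% and 4.63% with sFlk1, and the groups overlapped. The differences of the other 4 were 3.76 points (Itprid1 with Ppp1r17), 3.72 (Garem1, an adaptor in growth factor signalling), 2.35 (Rb1cc1, an autophagy initiation protein) and 3.86 (Prickle2, a planar cell polarity protein). Those with the smallest p in the lower direction were Slx4ip with the Notch ligand Jag1, Ipo11, Ghr, the growth hormone receptor, Itga8 and Agpat4, and all had an unadjusted p above 0.05.

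Between sFlk1 and empty-vector tumours, 30 of 300 peaks were lower at an unadjusted p under 0.05, against 5.06% of all bins and 7.35% of other eligible bins, and 1 was higher, against 2.12%. No peak, and 1 of the 8576 bins (0.0117%), passed the adjusted threshold, and the lowest adjusted p of a peak was 0.47 (limma). Without overlap, 45 peaks were lower in sFlk1 tumours, against 8.24% of all bins and 12.1% of other eligible bins, and 7 higher, against 3.43%. The mean was higher in sFlk1 tumours in 77 of the 300 peaks, against 40.3% of all bins higher. Scaled to the tumour median, 17 peaks were lower and 5 higher. Over all bins 255 (2.97%) were lower and 329 (3.84%) higher in place of 434 and 182. Leaving out empty-vector tumour 1 gave 15 lower peaks in place of 30, against 3.74% of all bins. Without sFlk1 tumour 1 there were 19, against 4.92%.

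The smallest p belonged to the peak of Bcr, known from the BCR-ABL fusion, in chr10:75000001-75300000. Empty-vector tumours had 6.14%, 6.44% and 5.59% and sFlk1 tumours 3.83%, 2.58% and 4.05%. All 3 sFlk1 tumours were below all 3 empty-vector tumours (difference -2.57 points, SE 0.739, limma, adjusted p = 0.47). The bins of Fmn1, a formin (-3.24), Ankrd22 with lipase genes (-2.86), Ccnjl (-2.17) and Stk17b, a kinase (-2.47), followed. The Stk17b bin is 64.4% covered by Hecw2, a long gene that counts in the neighbouring bin. The highest in the other direction was the peak of Sh2d4b and Tspan14, rank 3 by ratio. It had 3.32%, 4.69% and 4.20% with the empty vector and 5.43%, 8.29% and 6.01% with sFlk1, without overlap (difference 2.51, limma, adjusted p = 0.52). Rb1cc1, the bin of Mir181a-1, Tcte2, and Slx4ip with Jag1 came next, each with an unadjusted p above 0.05 (limma). Rb1cc1 was thus named as higher in both comparisons. Its bin had 1.97%, 1.73% and 1.99% with the empty vector and 1.93%, 3.82% and 3.70% with sFlk1, with overlap.

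The step over the flanks was tested in its own limma fit over the 5957 bins. Between heterozygous and wild-type tumours, 37 of 300 peaks had a larger step at an unadjusted p under 0.05, against 2.5% of all bins and 3.28% of other eligible bins, and 0 a smaller one, against 2.92%. None passed the adjusted threshold in either comparison (0% of all bins), with a lowest adjusted p of a peak of 0.85 and 0.43 (limma). The step was larger in heterozygous tumours without overlap in 43 peaks, against 3.29% of all bins, and smaller in 0, against 3.81%. In the mean it was larger in 258 peaks (86.0%), against 48.9% of all bins and 55.3% of other eligible bins. A step in points grows with the level. On the log2 scale 15 of 300 peaks were larger and 3 smaller, against 1.71% and 1.86% of all bins. Scaled to the tumour median, 14 were larger and 3 smaller, against 1.93% and 2.18%. Leaving out wild-type tumour 2 gave 21 larger in place of 37, and 1.68% of all bins in place of 2.5%. The peaks of Abra, Garem1 and Top2b led in the larger direction. Oxr1, a long gene that counts in a neighbouring bin, covers 53.7% of the Abra bin. In the smaller direction the smallest p belonged to Itga8, Agpat4 and Ipo11, all with an unadjusted p above 0.05 (limma). Between sFlk1 and empty-vector tumours, 14 peaks (4.67%) had a smaller step, against 3.51% of all bins and 4.79% of other eligible bins, and 2 a larger one, against 3.84%. That share of smaller steps was near the background. Without overlap, 27 peaks had a smaller step, against 5.09% of all bins, and 8 a larger one, against 5.51%, and 103 had a larger step in the mean, against 50.1%. Bcr, Ankrd22 and Lnpep led in the smaller direction, and Sh2d4b, the bin of Mir181a-1 and that of Ccdc82 in the larger. The Ccdc82 bin is 67.8% covered by Maml2, a long gene that counts in the neighbouring bin. On the log2 scale 16 peaks were smaller and 8 larger, against 3.59% of all bins in each direction. Leaving out empty-vector tumour 1 gave 9 smaller steps in place of 14, against 3.22% of all bins. Without empty-vector tumour 3 there were 29, against 4.28%, and without sFlk1 tumour 2 there were 23, against 3.79%.

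Since the 13 tumours chose the peaks, the comparisons were repeated on peaks chosen in the other model. On the 300 bins chosen in the plasmid tumours, the heterozygous mean was 5.52% ± 0.518 (SD, n = 4) against 4.29% ± 0.386 (SD, n = 3) in wild type, without overlap. At an unadjusted p under 0.05, 74 of these bins (24.7%) were higher and 0 lower. The shares were 10.4% and 0.443% of all bins, and 20.9% and 0.0342% of the eligible bins outside the 300 peaks. The step of the bins chosen in the plasmid tumours was 3.00 ± 0.316 against 2.20 ± 0.305 points, without overlap. It was larger in 29 and smaller in 0 of the 289 bins tested (10.03% larger, against 2.5% of all bins and 3.28% of other eligible bins). Bins chosen for a large step gain more points than other bins when a tumour's level is higher throughout, and choosing in the other model does not remove this. Counts on the log2 scale or after scaling were not made for these bins. Their ratio of means was 2.19 ± 0.141 against 2.05 ± 0.109, with overlap. On the 300 chosen in the Phd2 model, sFlk1 had 4.33% ± 0.2403 (SD, n = 3) against 4.96% ± 0.397 (SD, n = 3), without overlap. Of these bins 31 (10.3%) were lower and 1 higher, against 5.06% and 2.12% of all bins. Other eligible bins had 7.35% lower and 0.479% higher. The step of the bins chosen in the Phd2 model was 2.13 ± 0.225 against 2.55 ± 0.249 points, with overlap. It was smaller in 14 and larger in 2 of 285. The share of smaller steps, 4.91%, was near the background of 4.79% of other eligible bins (3.51% of all bins). The directions and sizes were close to those of the 300 peaks. However, 233 of the bins chosen in the plasmid tumours and 254 of those chosen in the Phd2 model were themselves among the 300 peaks. Most bins were thus read again in the same tumours, and the closeness is no separate support. In these bins too the ratios overlapped between groups.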

How the data were processed

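5hmC was measured by TAB-seq in 13 tumours. The authors deposited 1 table of 5hmC in percent per 300 kb bin, with 1 column per tumour. The submitters' processing notes name Bismark 0.13.1 and the build mm9 without a role for either. The last bin of chromosome 1 ends at 195471971, the GRCm38 length, so coordinates are read as GRCm38. Pooling of calls, coverage minimum and conversion rates: not given in the sources used here. A 0 may stand for no data, so the rule leaves such bins out.

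Members and lists were chosen with earlier results of these data known. Groups come from the sample titles. P-values measure the spread between these tumours. Levels of 8576 bins (autosomes and X, not 0 in all tumours) and steps of 5957 bins were fitted with limma 3.58.1 (R 4.3.3), with trend, 4 group means and Benjamini-Hochberg adjustment at 0.05. An SE is limma's, or for a mean over peaks that of the group SDs. Gene positions and promoters are RefSeq GRCm38.p6, and a gene counts in the bin holding most of its body. Bins were named by rule: the 10 highest ratios, 3 just inside and 3 outside the limit, the 5 largest steps, and per comparison and direction the 5 smallest p for level and 3 for step, with at most 4 genes each; listed genes in peaks were added. The fits were tested on simulated data: with 4 points added to 200 bins, 88.5% (heterozygous, level, 8576 bins), 90.0% (sFlk1, level), 90.5% (heterozygous, step, 5957 bins) and 81.0% (sFlk1, step) were recovered; with 2 points, 44.0%, 32.0%, 0.5% and 0.5%. The changed bins were drawn from all bins fitted, with noise independent between bins and tumours. Peaks had a larger spread of level within groups (median SD 1.06 points) than the 5957 bins (0.792), and recovery in peaks was not simulated. Alternatives were the log2 scale (percent plus 0.5), scaling to the tumour median, no trend, a replicate block, other forms of the rule, and each tumour left out.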

Additional observations from a re-analysis of the deposited data

Results flagged for a closer look

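In 4 peaks 1 heterozygous tumour stood apart from the other 3 by more than Dixon's limit for 4 samples, and chance alone places about 1 in 20 groups beyond it. The Vps13d bin was at 9.21% in 1 tumour and at 5.10% to 5.74% in the others. The Arhgap42 bin was at 9.25% against 7.18% to 7.41%, and the Stk17b bin at 6.74% against 4.59% to 4.62%. The Ghr bin was at 6.05% against 6.75% to 6.84%. In all, 57 groups of 4 were examined.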

How the results depend on the processing

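With other forms of the rule, the median over tumours kept 260 of the 300 peaks, a minimum of 2% 270, a minimum of 4% 224, the higher flank alone 232, 2 bins on each side 179 and the difference in points 198; leaving out a tumour kept 278 to 289. Taken as a difference in place of a ratio, the same held-out peaks stood a median of 2.17 and 2.56 points above their flanks. Leaving out each tumour gave 48 to 95 peaks higher in heterozygous tumours by level and 21 to 44 by step, and 15 to 38 lower in sFlk1 tumours by level and 9 to 29 by step (29 without empty-vector tumour 3, 23 without sFlk1 tumour 2, 9 without empty-vector tumour 1). The same shares over all bins ran from 5.10% to 13.7% and from 1.68% to 2.79% for heterozygous tumours. For sFlk1 they ran from 3.74% to 6.10% by level and from 2.57% to 4.33% by step. Bins past the adjusted threshold numbered 0 to 1 (heterozygous; 1 without heterozygous tumour 3) and 1 to 4 (sFlk1; 4 without sFlk1 tumour 1). At an unadjusted p under 0.05 (limma), scaling to the tumour median gave 25 (heterozygous) and 17 (sFlk1) peaks by level, against 2.03% and 2.97% of all bins. By step it gave 14 (heterozygous), against 1.93%. The log2 scale gave 15 by step (heterozygous), against 1.71%, and by level 1 bin past the adjusted threshold (heterozygous). Without trend 26 peaks had a smaller step (sFlk1), against 3.79% of all bins. Replicate numbers did not pair the tumours, which came from separate mice (correlations of deviations from -0.0934 to -0.00429 and from -0.0526 to -0.0421). Under a replicate block, 94 (heterozygous) and 33 (sFlk1) peaks had an unadjusted p under 0.05 by level (limma), against 13.1% and 5.03% of all bins. By step there were 25 and 15, against 2.50% and 3.71%. No peak passed the adjusted threshold under the block, and 1 bin outside the peaks did by step (sFlk1). Of 608 alternatives for 32 named values, 3 reversed: Itga8 (heterozygous minus wild type, 0.034 points without wild-type tumour 3, range -1.18 to 0.034 over tumours left out) and Agpat4 (0.18 points under the block, which gives the fourth heterozygous tumour no partner, and without that tumour, range -0.53 to 0.18). The causes were not tested.

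Depth is unknown, so no value has a counting error, and groups of 3 or 4 tumours limit the tests: changes of 2 points in a step were recovered in 0.5% of simulated bins.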
